A study of Mus musculus with 8 samples.

Results

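The genes described here act in the G2 to M phases of the cell cycle. They were chosen by name, as a list of 34 symbols with known roles in mitosis, and a gene was taken where the platform annotation gives a probe set that symbol alone. Of the 34, 32 were measured, among 12393 genes in all; Ccnb1 and Cdca8 are not analysed here. RNA of 8 samples was hybridised to Affymetrix Mouse 430A 2.0 arrays. The labels name them as CD44hi cells (4 arrays) and CD44lo cells (4 arrays) purified from stable mouse T cell lymphoma lines. All of them were deficient for Snf5, which is encoded by Smarcb1 and belongs to the SWI/SNF complex that repositions nucleosomes, and no sample with intact Snf5 is analysed here. CD44, the sorting marker, is a hyaluronan receptor that is abundant on memory and activated T cells. How many lines were used, and whether the 4 samples of a group were grown separately, is not in the labels. The p-values below therefore reflect how far these arrays scatter, and part of that scatter may be technical. No age, strain or treatment is named.

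Entry into mitosis is driven by cyclin A and cyclin B bound to the kinase Cdk1, with Plk1 and the Aurora kinases acting beside it at centrosomes, centromeres and the central spindle. The spindle checkpoint holds the anaphase-promoting complex until chromosomes are attached, and the complex then marks cyclin B for destruction so that the cell can divide. Transcripts of most of these proteins are low in G1 and peak in G2 and M, so in a mixed population their level depends on how many cells are cycling. In the RNA of a cell population, a lower share of cells in G2 and M and less of the transcript per cell cannot be told apart.

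Genes of this phase are known to share promoter elements: CCAAT boxes, bound by the factor NF-Y, and the cell cycle genes homology region, with the core TTTGAA or, less often, TTCGAA, bound by MuvB complexes. The RefSeq promoter table (GRCm38.p6, 250 bases before to 50 after the gene's start) held a window for 29 of the 34 genes and none for Ccna2, Cdc25c, Aurkb, Kif20a and Tpx2. On either strand, TTTGAA or TTCGAA was found in 23 of the 29 windows (79.3%), against 19.4% of the 27025 genes with a window. In the last 100 bases, around the start site, it was found in 21 of the 29 (72.4%), against 5.29% of all genes. CCAAT was found on either strand in 24 of 29 (82.8%), against 37.9% of all genes, and both motifs in 21 (72.4%), against 7.70%. Matches that overlapped each other were counted for each motif. Windows of 4 members are shown because they carry both motifs and because these genes moved together in the arrays: Plk1 and Cdc20, which were among the members that differed most between arrays, and Ccnb2 and Cdk1, which form a cyclin and kinase pair. They run 5' to 3' on the gene's strand, with TTTGAA (or its complement) and CCAAT (or ATTGG on the other strand) in capitals.
Plk1 promoter (chr7:122159185-122159484, + strand): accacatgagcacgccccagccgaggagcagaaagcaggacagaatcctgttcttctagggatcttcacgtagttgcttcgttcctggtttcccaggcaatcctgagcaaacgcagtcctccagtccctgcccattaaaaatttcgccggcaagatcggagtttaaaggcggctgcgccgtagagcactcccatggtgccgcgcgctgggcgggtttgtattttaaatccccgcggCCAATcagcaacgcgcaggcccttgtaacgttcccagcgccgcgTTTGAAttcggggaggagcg
Ccnb2 promoter (chr9:70421505-70421804, - strand): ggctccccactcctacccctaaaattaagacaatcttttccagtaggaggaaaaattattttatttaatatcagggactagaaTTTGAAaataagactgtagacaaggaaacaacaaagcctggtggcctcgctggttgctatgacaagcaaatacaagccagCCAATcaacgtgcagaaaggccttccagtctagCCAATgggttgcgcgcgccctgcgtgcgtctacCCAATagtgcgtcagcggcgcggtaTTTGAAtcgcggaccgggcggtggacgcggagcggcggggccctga
Cdc20 promoter (chr4:118437294-118437593, - strand): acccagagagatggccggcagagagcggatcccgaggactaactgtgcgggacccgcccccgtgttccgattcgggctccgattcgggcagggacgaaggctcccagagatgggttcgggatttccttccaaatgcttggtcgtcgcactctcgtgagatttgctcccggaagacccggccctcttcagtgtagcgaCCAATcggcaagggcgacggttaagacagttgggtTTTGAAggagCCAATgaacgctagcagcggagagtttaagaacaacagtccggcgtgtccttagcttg
Cdk1 promoter (chr10:69352863-69353162, - strand): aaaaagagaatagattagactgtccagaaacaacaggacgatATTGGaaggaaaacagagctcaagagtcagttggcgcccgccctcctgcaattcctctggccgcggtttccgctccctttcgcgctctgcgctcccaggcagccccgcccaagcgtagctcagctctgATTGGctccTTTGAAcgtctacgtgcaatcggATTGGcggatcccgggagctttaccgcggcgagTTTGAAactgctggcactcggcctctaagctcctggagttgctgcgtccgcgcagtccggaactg
In Plk1 the 1 TTTGAA match began at position 31 from the start site and the 1 CCAAT match at position -14. Ccnb2 had 3 CCAAT matches, which began at positions -87, -54 and -21, and TTTGAA matches at 5 and -167. The TTTGAA match in Cdc20 began at position -18 and those in Cdk1 at -71 and -15. A match describes the letters of the window and does not show that a factor bound there.

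All 32 measured mitotic genes were higher on the arrays numbered 1 and 3 than on those numbered 2 and 4, in CD44hi and in CD44lo alike. The median log2 difference was 0.84 in CD44hi and 0.84 in CD44lo, or 1.79-fold in each, against medians of -0.01 and -0.003 over all 12393 genes. For each of the 32, the 4 arrays numbered 1 and 3 of both groups lay above the 4 arrays numbered 2 and 4; this held for 12.3% of all genes, with 13.1% the other way round. Within CD44hi alone replicates 1 and 3 lay above 2 and 4 in 26.9% of all genes, and within CD44lo in 28.0%. Differences of at least 2-fold in both groups were found for 6 of the 32 and for 0.234% of all genes, 29 in number, while 0.29% of all genes and 0 members differed that far in the other direction. The 100 highest differences averaged over the groups (0.807% of all genes) held 9 members. The labels do not say what the replicate numbers stand for, and the division into 1 and 3 against 2 and 4 was found earlier in the values of these arrays over all genes. The difference between these replicate sets is therefore described here with no test.

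**Figure D1:**
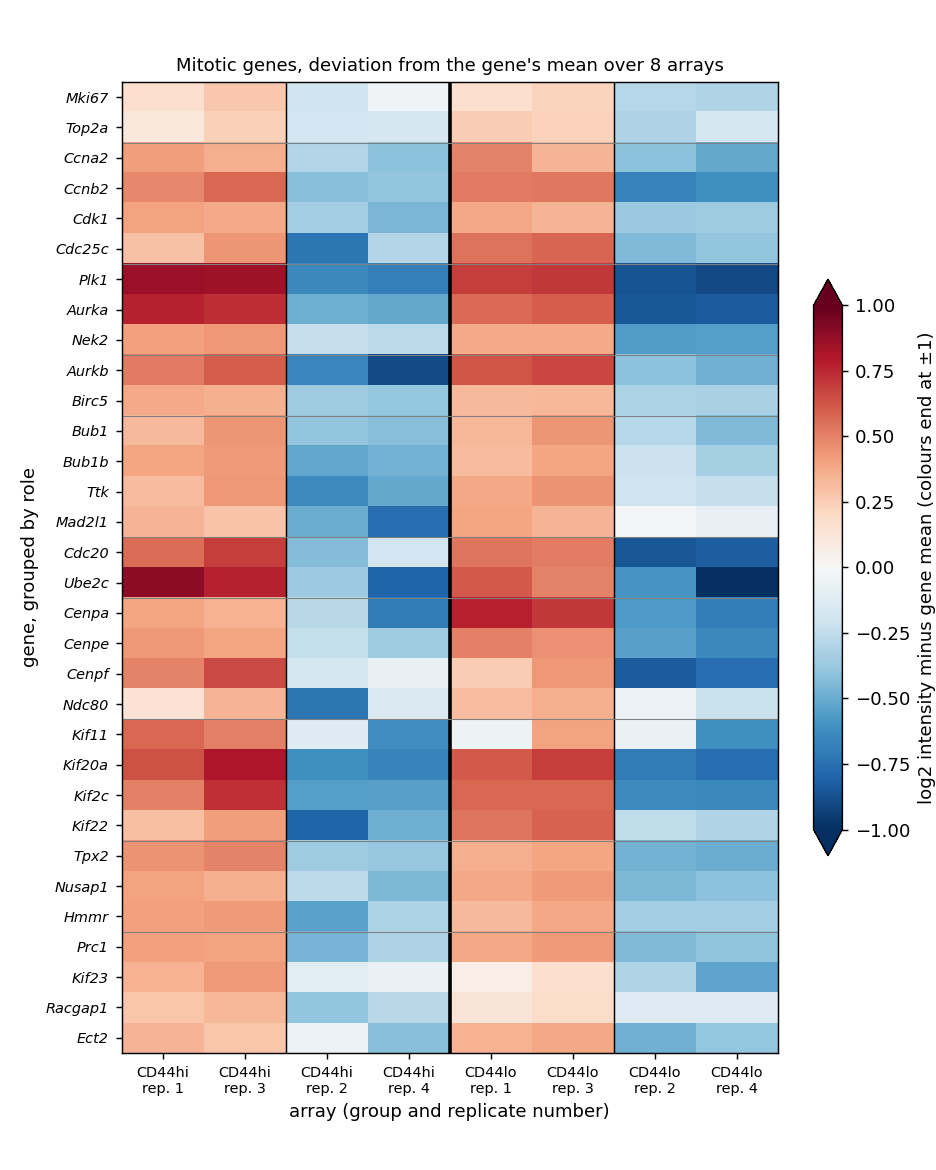
Each row is a mitotic gene and each column an array; colour gives the log2 intensity minus the gene's mean over the 8 arrays, red above and blue below, and grey lines part the roles. The columns of replicates 1 and 3 are red and those of 2 and 4 blue in each CD44 group, with 32 of 32 genes above their own mean on CD44hi arrays 1 and 3 and 32 of 32 below it on CD44hi arrays 2 and 4.

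On each array the members moved as a block. Their median deviation from the gene's own mean over the 8 arrays was 0.41 and 0.43 on CD44hi arrays 1 and 3 and -0.39 and -0.42 on CD44hi arrays 2 and 4. On CD44lo arrays 1 and 3 it was 0.38 and 0.43, and on CD44lo arrays 2 and 4 it was -0.42 and -0.46. A single value ran against its array: Kif11 on CD44lo array 1 had a deviation of -0.05. Within a replicate set and group, 2 arrays differed by a root mean square of 0.101 to 0.236 over the mitotic genes and 0.170 to 0.297 over all genes. Between the sets of a group it was 0.882 to 0.991 over the mitotic genes, against 0.296 to 0.479 over all genes.

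The sorting marker followed the labels: Cd44 averaged 11.44 ± 0.28 on CD44hi arrays and 5.55 ± 0.45 on CD44lo arrays (SD over 4). Of 9 T cell markers, 6 (the CD3 and CD8 chains and Cd247) were at 12.76 or above on every array, with Cd3e at 12.92 to 13.16 and Cd8a at 13.81 to 13.94. The other 3 were low on every array, with Thy1 at 4.34 to 4.61, Cd5 at 4.15 to 4.48 and Cd2 at 5.49 to 6.10, where bacterial controls had medians of 3.95 to 4.12 by array. The summed intensity of the 9 ranged from 75691 to 77572 on arrays 1 and 3 and from 75646 to 79255 on arrays 2 and 4. Over both groups 1 of the 9, Cd247, was higher on arrays 1 and 3 without overlap, by 0.14 in CD44hi and 0.06 in CD44lo. Another 1, Cd8a, was lower there without overlap, with differences of -0.08 and -0.10. Smarcb1 was at 6.78 ± 0.10 in CD44hi and 6.85 ± 0.21 in CD44lo. Where its probes lie relative to the deletion is not given, so this level does not check the deficiency. Some measures moved with the replicate sets, as the mitotic genes did. Control probe sets at the 3' end gave more signal than those at the 5' end, a gap that widens as RNA degrades. The log2 of that ratio was 0.380 to 0.532 on arrays 1 and 3 and 0.558 to 0.795 on arrays 2 and 4 for Actb, and 1.80 to 2.44 and 3.11 to 3.83 for the transferrin receptor gene Tfrc. For Gapdh the ranges overlapped, at 0.683 to 0.838 and 0.650 to 0.877. Of 8 myeloid markers 1, Cd68, parted the sets, and the summed intensity of the list was 449 to 492 on arrays 1 and 3 and 1042 to 1441 on arrays 2 and 4. The defining myeloid markers Itgam (4.26 to 4.42) and Lyz2 (4.92 to 5.52) were low on every array. Of 8 fibroblast markers 0 parted the sets over both groups, but the sum was 4999 to 6491 on arrays 1 and 3 and 7072 to 7450 on arrays 2 and 4. Fn1, the brightest of the list, had 12.19 and 12.51 against 12.65 and 12.63 in CD44hi, and 12.23 and 12.35 against 12.23 and 12.22 in CD44lo (arrays 1 and 3 against arrays 2 and 4). Postn differed by -2.18 in CD44hi and -1.15 in CD44lo, and Col1a1 was at 5.54 to 5.76 throughout. For B cell, dendritic, erythroid and endothelial markers the summed ranges of the sets overlapped over both groups, but not within CD44hi. There the sums were 221 and 215 against 233.8 and 249.3 for B cell, 366 and 389 against 312 and 294 for dendritic, 208 and 218 against 257 and 305 for erythroid and 142 and 146 against 153 and 157 for endothelial markers. Within CD44lo the erythroid sums ran the other way, at 222 and 221 against 175 and 185, and the other 3 overlapped. Of 6 dendritic markers 2 parted the sets over both groups: Cd74 differed by 1.21 in CD44hi and 0.24 in CD44lo, and Zbtb46 by -0.73 and -0.63. The B cell marker Ms4a1 differed by -1.34 in CD44hi and -0.02 in CD44lo. The part of these measures in the differences of the mitotic genes was not tested.

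Among the kinases of mitotic entry, Plk1 had the largest difference of all 32 genes in each CD44 group on the probe sets used. A further Kif2c probe set in CD44hi (1.70) and a further Cdc20 probe set in CD44lo (1.60) differed more. Plk1, which activates Cdk1 and matures centrosomes, had log2 intensities of 10.26 and 10.25 on CD44hi arrays 1 and 3 and 8.76 and 8.72 on CD44hi arrays 2 and 4, and 10.09 and 10.11 on CD44lo arrays 1 and 3 and 8.54 and 8.50 on CD44lo arrays 2 and 4. The lowest array numbered 1 or 3 thus lay 1.34 above the highest numbered 2 or 4, and the differences of 1.52 and 1.58 are 2.86-fold in CD44hi and 3.00-fold in CD44lo. Averaged over both groups, Plk1 ranked 6 among all genes by this difference. Aurka, the Aurora kinase of centrosomes and spindle poles, had 11.91 and 11.88 against 10.65 and 10.63 in CD44hi, and 11.71 and 11.74 against 10.29 and 10.31 in CD44lo (arrays 1 and 3 against arrays 2 and 4, as in the sentences that follow). Its differences were 2.39-fold and 2.69-fold, with no overlap of the sets. Nek2, a centrosome kinase, differed less, by 0.67 in CD44hi and 0.94 in CD44lo.

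**Figure D2:**
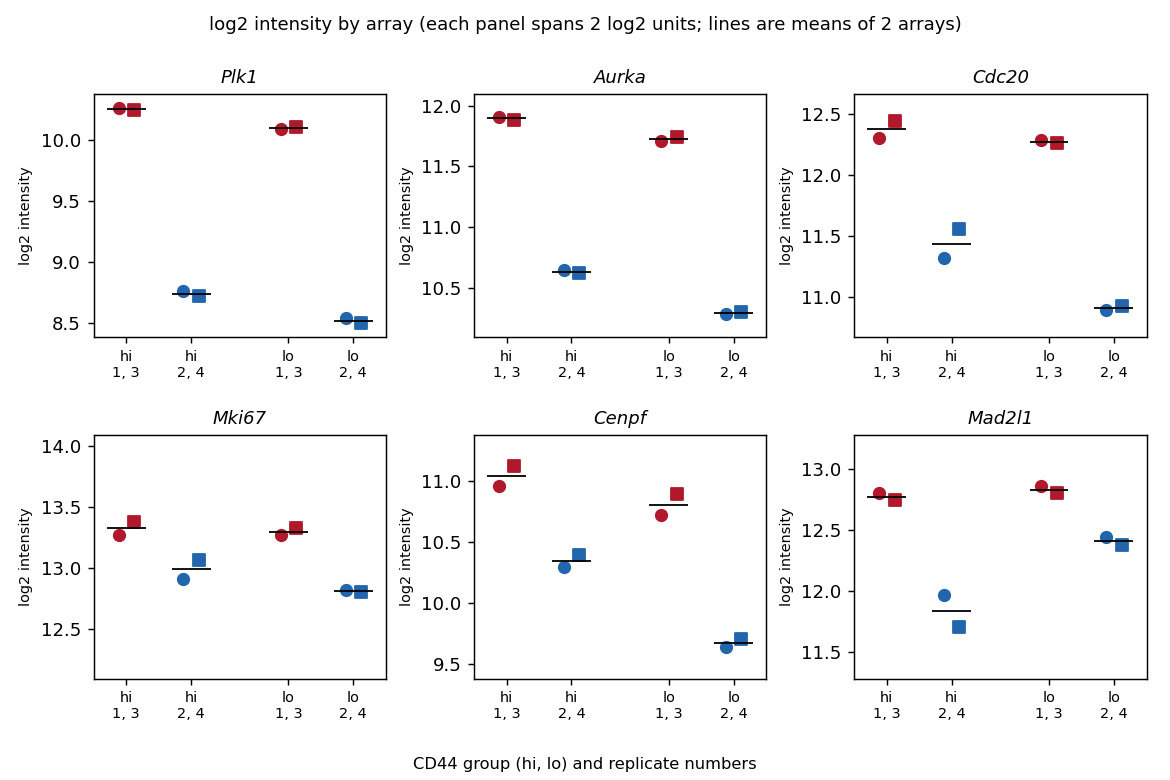
log2 intensity of 6 mitotic genes on each array, by CD44 group and replicate set; circles are replicates 1 and 2, squares replicates 3 and 4, red marks arrays 1 and 3 and blue arrays 2 and 4, and each panel spans the same range. Plk1 and Aurka part the replicate sets by over 2-fold in both groups, and Mki67 by 1.26-fold and 1.40-fold. On the probe sets drawn, Cenpf and Mad2l1 part them unequally in CD44hi and CD44lo. A further Cenpf probe set, not drawn, differs by 0.78 in CD44hi and 0.79 in CD44lo.

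On the probe sets used, the cyclins and their kinase moved less far than Plk1 and Aurka. Ccna2 and Ccnb2, the mitotic cyclins measured, differed by 0.75 and 0.94 in CD44hi and by 0.88 and 1.16 in CD44lo. A further Ccna2 probe set of nearly the same mean (11.99 against 12.01) differed more, by 1.23 in CD44hi and 1.41 in CD44lo. Cdk1, their partner kinase, had 13.15 and 13.12 against 12.40 and 12.28 in CD44hi, and 13.13 and 13.08 against 12.37 and 12.39 in CD44lo. Within a set of a group its values agreed to within 0.12, and the sets were 1.73-fold and 1.65-fold apart. Cdc25c, the phosphatase that activates Cdk1, differed by 0.88 in CD44hi and 0.98 in CD44lo.

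Mki67 and Top2a, the genes most used as proliferation markers, were among the members that differed least. Mki67, which coats mitotic chromosomes, had 13.27 and 13.38 against 12.91 and 13.07 in CD44hi, and 13.27 and 13.32 against 12.82 and 12.80 in CD44lo. Top2a, the topoisomerase that untangles sister chromatids, had 13.16 and 13.30 against 12.87 and 12.88 in CD44hi, and 13.31 and 13.28 against 12.74 and 12.89 in CD44lo. In both genes the sets did not overlap, but the folds were only 1.26 and 1.28 in CD44hi and 1.40 and 1.39 in CD44lo. These were also the last of the 32 in rank over all genes, at 815 and 798, so every measured member lay among the 1000 highest differences, which are 8.07% of all genes.

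The chromosomal passenger complex corrects faulty attachments of chromosomes to the spindle. Its kinase Aurkb had 11.69 and 11.78 against 10.52 and 10.28 in CD44hi, and 11.80 and 11.84 against 10.76 and 10.69 in CD44lo, which is 2.52-fold in CD44hi and 2.14-fold in CD44lo. Birc5 (survivin), which targets the complex to centromeres, had 13.77 and 13.75 against 13.04 and 13.01 in CD44hi, and 13.72 and 13.73 against 13.08 and 13.07 in CD44lo. Its sets were 1.67-fold and 1.57-fold apart, with at most 0.03 between the 2 arrays of any set.

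Of the spindle checkpoint, Bub1, Bub1b, Ttk and Mad2l1 were measured. Bub1, a kinase that marks kinetochores for checkpoint proteins, had 12.11 and 12.23 against 11.39 and 11.36 in CD44hi, and 12.11 and 12.22 against 11.50 and 11.34 in CD44lo. Its differences in the CD44 groups lay close together, at 0.79 and 0.75. Mad2l1, the inhibitor of Cdc20, had 12.80 and 12.74 against 11.96 and 11.70 in CD44hi, and 12.86 and 12.80 against 12.44 and 12.38 in CD44lo. The sets did not overlap, but their difference of 0.94 in CD44hi was over that of 0.42 in CD44lo, and CD44hi arrays 2 and 4 were the lowest. The checkpoint genes Bub1b and Ttk also differed more in CD44hi: Bub1b differed by 0.91 in CD44hi and 0.63 in CD44lo, and Ttk by 0.95 in CD44hi and 0.63 in CD44lo.

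The cofactors of the anaphase-promoting complex differed strongly. Cdc20, its activator in mitosis, had 12.31 and 12.44 against 11.32 and 11.56 in CD44hi, and 12.29 and 12.26 against 10.90 and 10.93 in CD44lo. Here CD44lo arrays 2 and 4 were the lowest, and the sets were 1.91-fold apart in CD44hi and 2.57-fold in CD44lo. Ube2c, its ubiquitin-conjugating enzyme, had 13.11 and 12.99 against 11.85 and 11.42 in CD44hi, and 12.83 and 12.72 against 11.63 and 11.21 in CD44lo. The sets were 2.67-fold and 2.56-fold apart, although arrays 2 and 4 differed from each other by 0.43 in CD44hi and 0.42 in CD44lo.

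Centromere and kinetochore genes varied in which CD44 group showed more. Cenpa, the centromeric histone H3 variant, had 11.40 and 11.36 against 10.73 and 10.31 in CD44hi, and 11.79 and 11.72 against 10.44 and 10.32 in CD44lo. CD44lo arrays 1 and 3 were the highest, and the sets were 1.82-fold apart in CD44hi and 2.59-fold in CD44lo. Cenpe, the kinetochore motor, had 10.84 and 10.80 against 10.17 and 10.05 in CD44hi, and 10.91 and 10.87 against 9.87 and 9.76 in CD44lo. It too differed more in CD44lo (1.07) than in CD44hi (0.71). Cenpf, a kinetochore and nuclear envelope protein, had 10.96 and 11.12 against 10.29 and 10.39 in CD44hi, and 10.72 and 10.90 against 9.64 and 9.71 in CD44lo. Its CD44lo arrays 2 and 4 were the lowest, 0.59 under the next array. A further, dimmer Cenpf probe set (mean log2 intensity 6.65) differed about equally, by 0.78 in CD44hi and 0.79 in CD44lo. Ndc80, which binds microtubules at the kinetochore, differed by 0.68 in CD44hi and 0.48 in CD44lo.

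Motors and spindle proteins followed the same order of arrays. Kif11, the motor that separates the spindle poles, had 12.43 and 12.35 against 11.72 and 11.23 in CD44hi, and 11.80 and 12.25 against 11.78 and 11.24 in CD44lo. In CD44lo its sets touched, with array 1 only 0.02 above array 2. Kif2c, which depolymerises microtubules at centromeres, had 10.93 and 11.16 against 9.88 and 9.89 in CD44hi, and 10.999 and 11.01 against 9.79 and 9.78 in CD44lo, a 2.24-fold and 2.33-fold difference. Kif20a, a motor of the central spindle, had 11.93 and 12.10 against 10.68 and 10.63 in CD44hi, and 11.91 and 11.99 against 10.59 and 10.54 in CD44lo. That is 2.57-fold in CD44hi and 2.61-fold in CD44lo, and its 4 values lay within 0.19 on arrays 1 and 3 and 0.14 on arrays 2 and 4. Kif22, a motor that binds chromosome arms, had 12.18 and 12.30 against 11.09 and 11.40 in CD44hi, and 12.42 and 12.48 against 11.64 and 11.59 in CD44lo. CD44hi arrays 2 and 4 were the lowest for Kif22 and differed from each other by 0.31.

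Tpx2, which activates Aurka on spindle microtubules, had 12.59 and 12.64 against 11.79 and 11.76 in CD44hi, and 12.50 and 12.54 against 11.67 and 11.65 in CD44lo. Its differences of 0.84 and 0.86 were nearly equal in the CD44 groups on this probe set. A further Tpx2 probe set differed by 0.80 in CD44hi and 0.63 in CD44lo. The microtubule-binding proteins Nusap1 and Hmmr differed by 0.74 and 0.84 in CD44hi and 0.84 and 0.70 in CD44lo. Prc1, which bundles microtubules of the central spindle, had 12.35 and 12.34 against 11.48 and 11.63 in CD44hi, and 12.33 and 12.37 against 11.51 and 11.54 in CD44lo, again with nearly equal differences. Ect2, the exchange factor that activates RhoA for cytokinesis, had 11.72 and 11.66 against 11.32 and 10.95 in CD44hi, and 11.73 and 11.76 against 10.90 and 10.99 in CD44lo. CD44hi arrays 2 and 4 of Ect2 lay 0.37 apart, and the sets did not overlap. Kif23, which with Racgap1 forms the centralspindlin complex, had 12.52 and 12.60 against 12.07 and 12.11 in CD44hi, and 12.24 and 12.34 against 11.88 and 11.64 in CD44lo. Its differences, 0.47 and 0.53, were small on this probe set, while a further Kif23 probe set differed by 1.07 in CD44hi and 0.83 in CD44lo. Racgap1 had the lowest difference of the probe sets used in CD44lo, 0.29, against 0.64 in CD44hi.

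**Figure D3:**
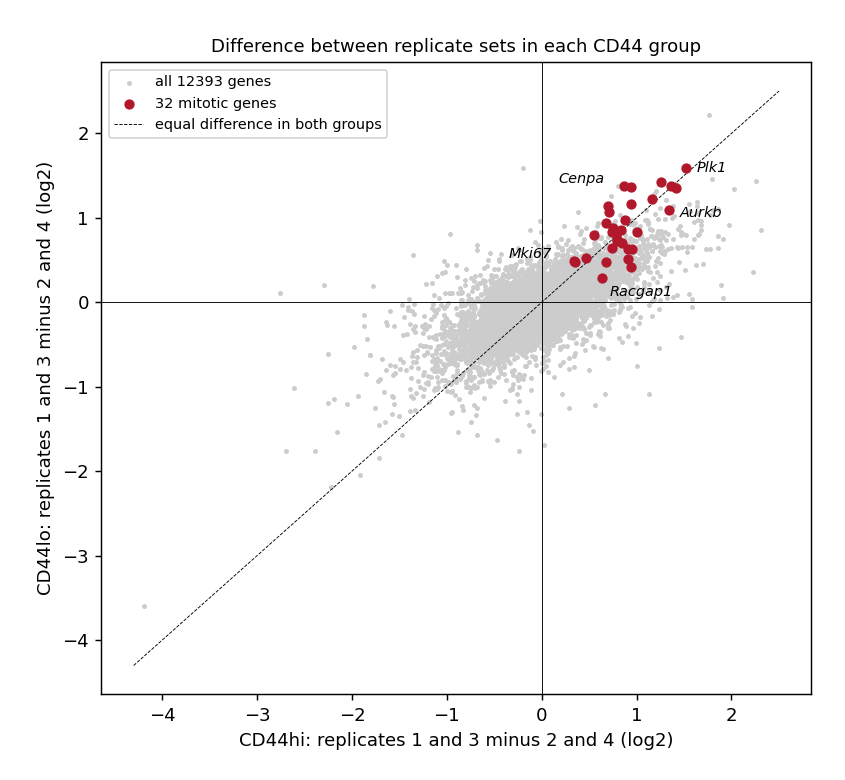
Each point is a gene; the x axis is the log2 difference between replicates 1 and 3 and replicates 2 and 4 in CD44hi and the y axis the same in CD44lo, with all genes in grey and the mitotic genes in red. All 32 red points lie above 0 on both axes, between 0.34 and 1.52 in CD44hi and between 0.29 and 1.58 in CD44lo.

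Of the 32 genes, 15 had several probe sets. Over all 55 probe sets of the members, 53 were higher on arrays 1 and 3 than on arrays 2 and 4 with no overlap within either CD44 group. The 2 exceptions, 1 further probe set each of Kif23 and Top2a, had mean log2 intensities of 4.40 and 5.22, where bacterial controls had medians of 3.95 to 4.12 by array, and differed by -0.003 and 0.06 in CD44hi and 0.10 and 0.08 in CD44lo. Sizes depended on the probe set. The second Ccna2 probe set differed by 1.23 in CD44hi and 1.41 in CD44lo, and the 3 further ones of Hmmr by 1.06 to 1.33 and 1.00 to 1.14. A further probe set of Kif11 differed by 1.05 in CD44hi and 0.88 in CD44lo, and one of Racgap1 by 0.77 in CD44hi and 0.48 in CD44lo. Further probe sets of Kif2c differed by 1.37 in CD44hi and 1.37 in CD44lo, and by 1.70 and 1.53. The probe set used for Kif2c differed by 1.16 and 1.22. A further one of Cdc20 differed by 1.23 in CD44hi and 1.60 in CD44lo, and one of Kif22 by 1.05 and 0.87. Lower values than on the probe set used were given by another of Kif22 (0.40 in CD44hi and 0.47 in CD44lo). The dimmest of Kif2c, with a mean log2 intensity of 5.75, also gave lower values (0.57 in CD44hi and 1.01 in CD44lo). So did further ones of Tpx2 (0.80 in CD44hi and 0.63 in CD44lo) and Prc1 (0.70 and 0.79). In CD44lo alone, values were lower on a further probe set of Nusap1 (0.52) and of Cenpf (0.79).

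No mitotic gene passed the test between CD44hi and CD44lo cells. The comparison of CD44hi with CD44lo called 0 of the 32 higher and 0 lower (limma, Benjamini-Hochberg adjusted p under 0.05 over all genes), where 2.03% of all genes were called higher and 1.78% lower (3.81% in all). At an unadjusted p under 0.05 it was also 0, against 12.6% of all genes. The median CD44hi minus CD44lo difference of the 32 was 0.03 on the log2 scale, with 18 positive and 14 negative, against -0.0001 over all genes. In 23 genes it lay between -0.2 and 0.2. The 4 CD44hi values lay wholly above the 4 CD44lo values in 5.29% of all genes and wholly below in 5.0%. Among the 32 this held for 0, but it could not have held for any. In each of them the replicate sets did not overlap over both groups, and each CD44 group held arrays of both sets. This count therefore says nothing about CD44. The standard errors of 0.16 to 0.52 in this fit hold the difference between the replicate sets as spread, and the lowest adjusted p was 0.612, for Kif23.

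Arrays of the same number deviated from their group means together, as did arrays of the same replicate set with different numbers. A fit that blocks on the replicate number gave standard errors of 0.06 to 0.13. Again 0 of 32 were called (6.19% of all genes), and 9 had an unadjusted p under 0.05 (18.9% of all genes). The largest difference was that of Cenpf, whose mean was 10.69 ± 0.41 over the 4 CD44hi arrays and 10.24 ± 0.66 over the 4 CD44lo arrays (SD; log2 difference 0.45, SE 0.11 with the block; limma adjusted p = 0.0633 with the block and 0.701 without). CD44hi exceeded CD44lo at each replicate number, by 0.24, 0.66, 0.23 and 0.69. On the further, dimmer Cenpf probe set the CD44hi minus CD44lo difference was 0.28. Mad2l1 was lowest relative to CD44lo, with a mean of 12.30 ± 0.55 for CD44hi and 12.62 ± 0.24 for CD44lo (SD over 4 arrays; difference -0.32; limma adjusted p = 0.234 with the block and 0.758 without). Kif23 differed by 0.30 (limma adjusted p = 0.0755 with the block), Ube2c by 0.25 (0.0829), Aurka by 0.26 (0.105) and Cdc20 by 0.31 (0.186). Kif22 differed by -0.29 (0.126) and Aurkb by -0.21 (0.242). At all 4 replicate numbers CD44hi was higher for 10 genes (14.1% of all genes) and lower for 4 (14.4% of all genes). The 10 were Mki67, Plk1, Aurka, Nek2, Cdc20, Ube2c, Cenpf, Kif20a, Tpx2 and Kif23. On a further Tpx2 probe set the CD44hi minus CD44lo difference was -0.0005, against 0.10 on the one used. Further Kif23 probe sets gave 0.20 and, at a mean log2 intensity of 4.40, -0.12. Further ones of Cdc20 gave 0.40 and 0.22. The 4 genes lower in CD44hi at all 4 numbers were Aurkb, Ttk, Mad2l1 and Kif22. Both lists depend on which arrays are paired within a set. For Mki67, CD44hi array 1 (13.27) lay below CD44lo array 3 (13.32), and for Kif20a 11.93 lay below 11.99. For Ttk, CD44hi array 3 (12.17) lay above CD44lo array 1 (12.12). With the replicate sets, rather than single numbers, as the block, 3 genes were called higher in CD44hi (4.21% of all genes were): Aurka (limma adjusted p = 0.0374), Cenpf (0.0299) and Kif23 (0.0362).

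**Figure D4:**
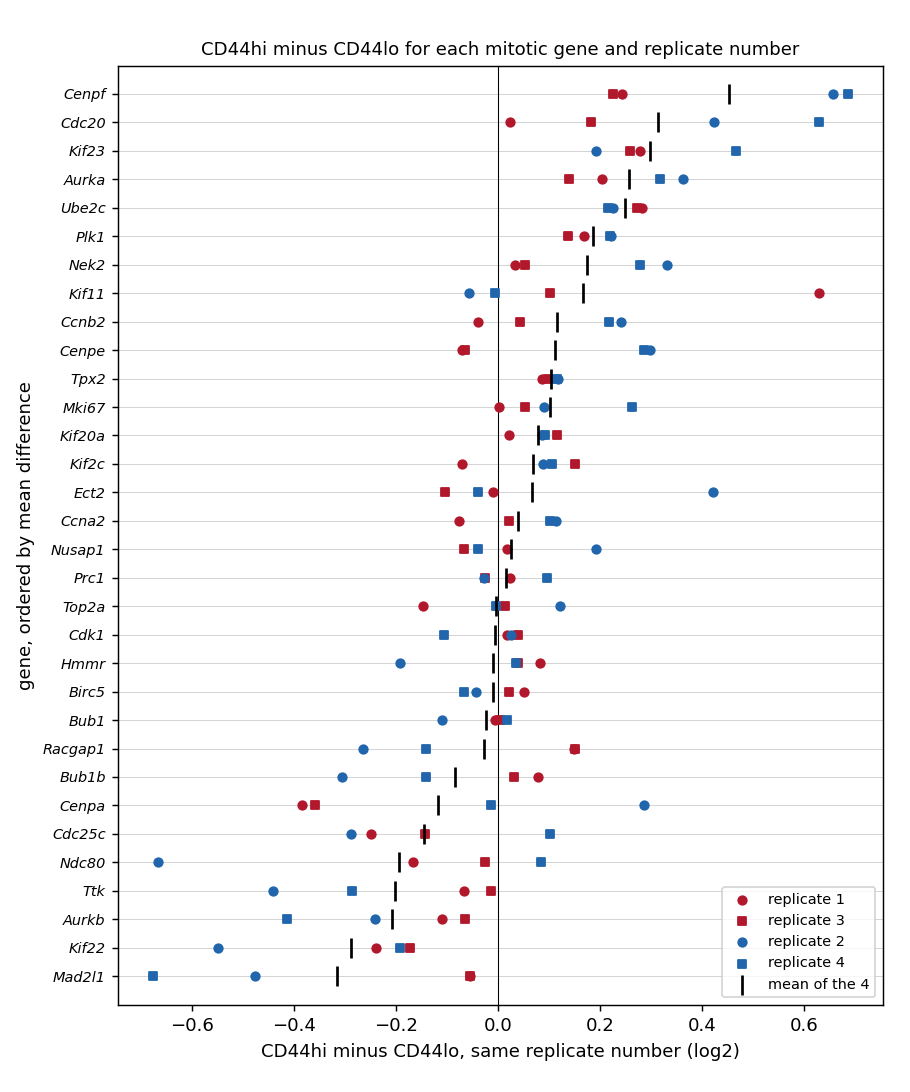
CD44hi minus CD44lo log2 difference between arrays of the same replicate number, for each mitotic gene, ordered by the mean of the 4 (black bars); red marks replicates 1 and 3, blue replicates 2 and 4. The means run from -0.32 for Mad2l1 to 0.45 for Cenpf and lie on both sides of 0.

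Within arrays numbered 1 and 3 alone the median CD44hi minus CD44lo difference was 0.03, and within arrays numbered 2 and 4 alone 0.08. In the first of these fits Cenpa was the 1 gene called (difference -0.37, limma adjusted p = 0.0473; 3.63% of all genes were called lower), and in the second Cenpf (0.67, limma adjusted p = 0.0306; 2.47% of all genes were called higher). For the change of the CD44 difference between the sets, limma's interaction called 0 of 32 (1.52% of all genes; lowest adjusted p = 0.154, for Mad2l1), and 9 had an unadjusted p under 0.05 (14.1% of all genes). These 9 fell into opposite directions. CD44hi was relatively higher on arrays 1 and 3 for Bub1b, Ttk, Mad2l1 and Racgap1, with changes of 0.28 to 0.52, and relatively lower there for Cdc20, Nek2, Cenpa, Cenpe and Cenpf, with changes of -0.51 to -0.26.

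Genes of other cell cycle steps were set beside the members by the same counts. Of 37 other mitotic genes measured, 34 had all arrays 1 and 3 above all arrays 2 and 4 (12.3% of all genes), and their median difference was 0.79 in CD44hi and 0.61 in CD44lo. Haspin, the kinase of histone H3 at centromeres, Gtse1, Cdca3 and the cyclin gene Ccnf differed by at least 2-fold in both groups. The 3 that did not part the sets were Incenp, Plk4 and Cit. Of 38 DNA replication genes 32 parted the sets in this direction, with medians of 0.71 in CD44hi and 0.37 in CD44lo. The difference was larger in CD44hi for 37 of the 38 replication genes, 13 of the 32 members, 28 of the 37 other mitotic genes and 6239 of all 12393 genes; these shares were not tested against each other. Orc1, the origin recognition subunit, had 10.75 and 10.83 against 8.97 and 8.56 in CD44hi, and 10.19 and 10.15 against 8.91 and 8.74 in CD44lo. For 13 condensin and cohesin genes the medians were 0.33 and 0.24, with 7 parted upward and 1 downward. The 13 subunits and regulators of the anaphase-promoting complex, whose cofactors Cdc20 and Ube2c are described above, had medians of 0.05 and 0.09, with 3 parted upward and 2 downward.

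Between CD44hi and CD44lo, 0 genes of each of these 4 lists were called without a block (limma), against 3.81% of all genes. As for the members, this fit holds the difference between the replicate sets as spread. At an unadjusted p under 0.05 there were 1 (Plk4, -0.32), 0, 1 (Stag2, -0.24) and 0 among the other mitotic, DNA replication, condensin and cohesin, and anaphase-promoting complex genes. Of all genes 12.6% had such a p. The differences with the next lowest p in their lists were -0.20 for Psrc1 and -0.16 for Stag1, and the lowest p of the anaphase-promoting complex list went to Anapc16 (0.16) and Cdc26 (0.12). With the replicate block, Gins1, a subunit of the replicative helicase, was the 1 gene called among them (0.33, limma adjusted p = 0.0403), against 6.19% of all genes. The median CD44hi minus CD44lo difference was -0.08 for the other mitotic genes and -0.17 for the DNA replication genes, beside 0.03 for the members. Negative differences numbered 29 of 37 for the other mitotic genes, 35 of 38 for the replication genes and 14 of 32 for the members, against 6198 of all 12393 genes. The replication median was 0.02 on arrays 1 and 3 alone and -0.30 on arrays 2 and 4 alone.

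**Figure D5:**
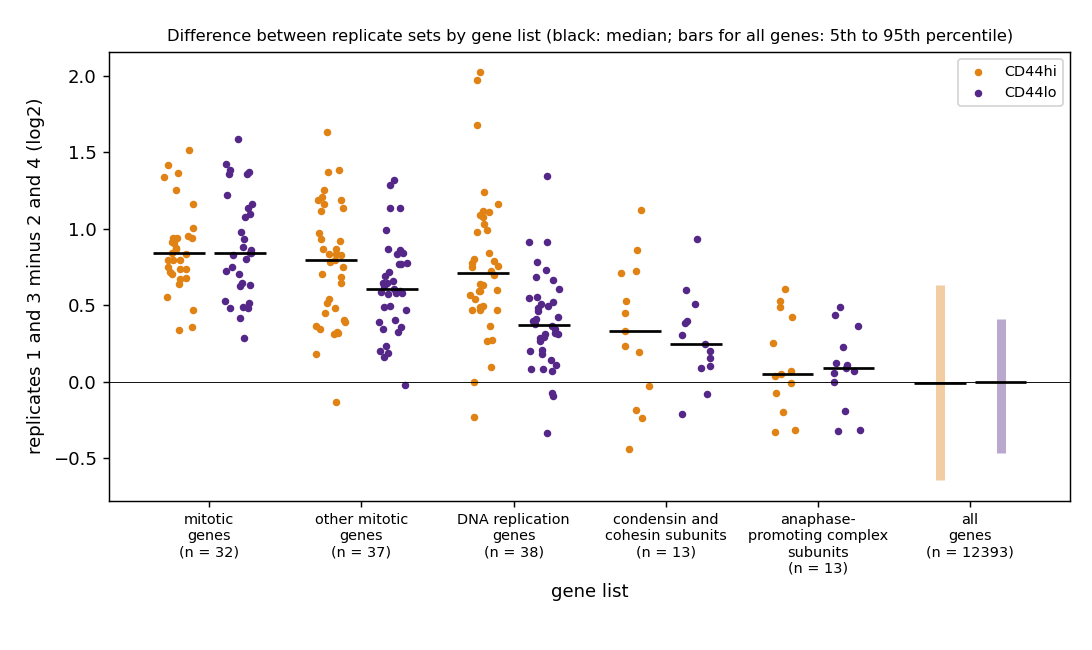
Log2 difference between replicates 1 and 3 and replicates 2 and 4 for the genes of 5 lists, in CD44hi (orange) and CD44lo (violet), with all genes as bars at the right whose span the title defines; points are genes and black lines medians. The members' medians are 0.84 in CD44hi and 0.84 in CD44lo, those of DNA replication genes 0.71 and 0.37, and those of all genes about 0.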

How the data were processed

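Probe set intensities of 8 arrays were made by the authors by RMA (Robust Multichip Average), a step named per the labels' protocols; its version is not given in the sources used here. The deposited intensity values spanned 7.61 to 36128 (medians by array 320.3 to 339.1) and were read as linear; log2 was taken with no pseudocount. RMA shrinks differences near background, and precision is limited by how few arrays there are. No genome build is given for the arrays.

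Of 22690 probe sets 20380 carry 1 gene symbol, 691 several, 1555 others none, and 64 are controls. In a RefSeq table (GRCm38.p6) 20351 gene identifiers matched and 0 symbols changed. For each of 12393 genes the probe set of highest mean was used.

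The CD44 groups were tested in R 4.3.3 with limma 3.58.1 (lmFit, eBayes) without covariates, and p-values were adjusted by Benjamini-Hochberg across the whole table. Members and gene lists were chosen with earlier results of these data known. All members may be named; values of every array are given for a fixed set of 18 genes, of which Ccnb1 was not measured, and the 5 highest absolute differences in each of 3 contrasts. Of the other lists, genes called or with the smallest p were named; Orc1, Haspin, Gtse1, Cdca3, Ccnf, Incenp, Cit Cd68, Itgam, Lyz2, Postn, Col1a1, Fn1, Thy1, Cd5, Cd2, Cd247, Cd74, Zbtb46 and Ms4a1 were chosen after their values were seen. No 2 arrays were identical. Both groups use numbers 1 to 4, and deviations of same-numbered arrays correlated across genes at 0.574, 0.404, 0.533 and 0.531, so by a rule of every pair over 0.1 arrays were treated as paired by number. The pairing comes from the values. Arrays of the same set with different numbers correlated at 0.372 to 0.521. CD44lo array 2 correlated more with CD44hi array 4 (0.458) than with CD44hi array 2 (0.404). The rule therefore does not tell pairing by number from pairing within a set. The fit was tested on simulated data. Alternatives were other normalizations, filters, probe sets, variance models, weights, blocks, thresholds and array subsets.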

Additional observations from a re-analysis of the deposited data

Results flagged for a closer look

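For each of the 32 measured mitotic genes, the 3 control ratios of 3' to 5' signal and the members' median deviation, the 4 arrays of each CD44 group were examined for 1 array far from the others. Of 72 such groups of 4 values 0 met Dixon's criterion for an outlying value.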

How the results depend on the processing

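Blocking by replicate set and the interaction were added after the data were seen. Against 0 mitotic genes called in either direction, arrays 1 and 3 alone gave 1 lower, arrays 2 and 4 alone 1 higher, and the replicate set as a block 3 higher; the replicate block, leaving out any 1 array, and the other alternatives run gave 0. Of 607 values of single members under alternatives 602 stayed uncalled and 5 passed, 0 of them with a turned direction; 114 uncalled values changed sign. The members' median CD44hi minus CD44lo difference was -0.113 to 0.167 without 1 array, negative without CD44hi replicate 1 or 3 or CD44lo replicate 2 or 4. The median difference between replicate sets in CD44hi was 0.817 with quantile normalization, 0.896 with centred arrays, 0.856 with the mean of probe sets and 0.906 with the most variable probe set, and 0.809 to 0.850 without 1 array; in CD44lo it was 0.915, 0.804 and 0.877 with centring, mean and most variable probe set. Over all genes, against 252 higher and 220 lower, there were 382 and 385 with the replicate block, 102 and 113 for genes above the median, 403 and 418 with array weights, 422 and 450 on arrays 1 and 3 alone, 522 and 544 with the set block, and 178 to 230 and 127 to 226 without 1 array (lower: 128, 142 and 127 without CD44lo replicate 2, 3 or 4). Causes were not tested.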

Other observations

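Among the members with a promoter window, the 22 measured genes that hold TTTGAA or TTCGAA had median differences between arrays 1 and 3 and arrays 2 and 4 of 0.85 in CD44hi and 0.78 in CD44lo, and the 5 without had 0.74 and 0.84. The 569 measured genes outside the list whose windows hold both that element and CCAAT had medians of 0.02 in each CD44 group, against -0.02 and -0.004 for the 9291 others. This is a description over genes, with no test.

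Within CD44hi, arrays 2 and 4 differed from each other more than any other pair of 1 set, with a root mean square of 0.236 over the mitotic genes, against 0.101 for CD44hi arrays 1 and 3, and 0.105 and 0.147 for CD44lo arrays 1 and 3 and 2 and 4. Ndc80 held the widest gap there, at 10.54 on CD44hi array 2 and 11.13 on CD44hi array 4, followed by Kif11 at 11.72 and 11.23.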
